A study of Mus musculus with 4 samples.

Results

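The genes described here are 42 genes of mitosis and the mitotic spindle, measured in cultured mouse epidermal keratinocytes that differed in their Casp8 genotype. They were listed by name, with earlier results of these data known, and the rule itself uses no measured value: a gene was included where at least 1 gene probe carried its symbol or an older one, such as Cdc2a for Cdk1. All 42 were found, on 72 of the 41174 gene probes of the array, and 69 of these probes were among the 35571 that passed the filter on dim probes, so each gene kept at least 1 probe. A gene with several probes is represented by its brightest kept probe.

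During mitosis a cell condenses its replicated chromosomes, builds a bipolar spindle of microtubules, attaches each chromosome to both poles through kinetochores and, once all are attached, separates the sister chromatids and divides. Cyclin A and B with the kinase Cdk1 drive entry into this phase, the spindle checkpoint holds the anaphase-promoting complex (APC) back until attachment is complete, and motors and chromosomal passenger proteins move chromosomes and place the cleavage furrow. Most of these genes are transcribed in G2 and M phase, so in a bulk culture their RNA is commonly read as a measure of how many cells are dividing. In the epidermis, division is largely a property of basal keratinocytes. In bulk RNA such as this, fewer dividing cells and less RNA per dividing cell cannot be told apart.

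One group of cultures came from Casp-8F/–K5-Cre mice (F/- below), in which the Casp8 allele flanked by loxP sites faces a null one, and the other from Casp-8F/+K5-Cre mice (F/+), whose second allele is wild type. Both groups carry K5-Cre, a recombinase driven by the keratin 5 promoter of basal keratinocytes, so the controls too have Cre and a flanked allele. Mouse age is labelled P3 in all samples. Cells of 2 mice per genotype were cultured without serum, in medium supplemented with pituitary extract and EGF, and RNA was taken at passage 1 (early) and passage 3 (late), which gave 8 RNA samples. Each of the 4 dual-colour arrays held F/- RNA in Cy3 and F/+ RNA in Cy5 of 1 numbered pair at 1 passage, 2 arrays per passage. Values below are log2 ratios of F/- over F/+ unless a sentence names another quantity, and array 1 and array 2 of a passage are those of pair 1 and pair 2.

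No array exchanged the dyes, so a dye effect would stay in every ratio; it would cancel in the difference between passages if it were equal on all arrays. The Cy5 source name of both late arrays gives the first passage, whereas their titles, descriptions and passage entries give the third, which was followed here. If the source name were right, the late ratio would set F/- at passage 3 against F/+ at passage 1. In the Cy5 channel, 2009 of 35472 probes differed between the late and early arrays at an adjusted p under 0.05 (limma). The Casp8 probe read 0.42 and 0.18 on the early and 0.47 and -0.20 on the late arrays; its place relative to the deleted part is not given, and it does not check the genotype. The share of gene spots clear of background ran from 75.8% to 87.9% over arrays and channels, with no saturated spot. All 12 keratinocyte markers examined, among them Krt5, Krt14, Col17a1 and Trp63, were well above background in both channels on all arrays.

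Promoters of many mitotic genes carry 2 short elements: the CCAAT box, read by the factor NF-Y, and the cell cycle genes homology region (CHR), TTTGAA or TTTAAA, which the DREAM and MuvB complexes contact. RefSeq promoter windows of assembly GRCm38.p6, from 250 bases before to 50 after the gene start, were given for 35 of the 42 genes. The windows of Ccna2, Kif20a, Incenp, Aurkb, Foxm1, Cdc25c and Tpx2 were not used here. The letters of the box were searched as CCAAT, with ATTGG as its reverse form. Those of the CHR were searched as TTTGAA, with TTCAAA as the reverse form, and as TTTAAA, which reads the same on both strands. CCAAT was found in 28 of the 35 windows (80.0%), against 42.3% of 17492 coding genes, and at least 2 copies in 57.1% against 14.4%. TTTGAA or TTTAAA was found in 29 (82.9%) against 28.2%, and within 100 bases before to 50 after the start in 26 (74.3%) against 12.8%. Both kinds stood together in 25 windows (71.4%), against 11.5% of coding genes. The median position was -68 for CCAAT and -18 for TTTGAA or TTTAAA, counted from the gene start; in the members, 1 match overlapped a match of a different motif. These are matches of letters, not shown sites.

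The stretches below run from 130 bases before to 30 after the gene start of 8 genes, 5′ to 3′ on the coding strand, with every whole match to the box or to either CHR form, on either strand, in capitals; in Cdca8 a CHR form and a reversed box share a base. Ccnb1, Ccnb2, Cdc20, Cenpf and Kif22 are shown as examples that passed the genotype test reported below and hold both motifs. Cenpe and Ect2 did so too but are not shown. Cdca8 is an example that passed a passage test, as did Plk1 and Cdc25b, which are not shown. Bub1 is shown because it passed the genotype test with CCAAT alone. Bub3 is shown because it holds both motifs but had the highest late genotype ratio of the 42, close to 0.
Ccnb1: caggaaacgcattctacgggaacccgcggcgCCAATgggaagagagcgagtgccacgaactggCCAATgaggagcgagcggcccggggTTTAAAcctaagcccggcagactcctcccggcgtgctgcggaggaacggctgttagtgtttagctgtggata
Ccnb2: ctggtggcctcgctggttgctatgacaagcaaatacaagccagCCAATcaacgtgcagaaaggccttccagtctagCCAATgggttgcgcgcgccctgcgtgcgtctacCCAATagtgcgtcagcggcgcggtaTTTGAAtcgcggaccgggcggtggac
Cdc20: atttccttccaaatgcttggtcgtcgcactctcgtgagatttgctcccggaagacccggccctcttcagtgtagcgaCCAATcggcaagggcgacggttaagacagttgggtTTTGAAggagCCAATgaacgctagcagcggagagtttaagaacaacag
Cenpf: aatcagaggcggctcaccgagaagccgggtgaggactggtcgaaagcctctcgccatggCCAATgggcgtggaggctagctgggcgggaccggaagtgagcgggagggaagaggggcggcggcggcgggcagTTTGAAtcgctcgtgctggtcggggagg
Kif22: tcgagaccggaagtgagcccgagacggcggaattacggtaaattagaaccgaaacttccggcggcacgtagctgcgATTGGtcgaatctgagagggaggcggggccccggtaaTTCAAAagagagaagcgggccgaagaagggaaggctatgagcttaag
Cdca8: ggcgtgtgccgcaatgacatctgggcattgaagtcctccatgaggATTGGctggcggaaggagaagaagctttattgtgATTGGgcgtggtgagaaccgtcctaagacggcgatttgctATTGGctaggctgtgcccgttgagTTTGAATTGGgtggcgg
Bub1: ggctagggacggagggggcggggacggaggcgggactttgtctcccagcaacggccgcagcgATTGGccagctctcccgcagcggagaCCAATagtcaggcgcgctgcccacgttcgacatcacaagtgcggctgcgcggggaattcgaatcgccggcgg
Bub3: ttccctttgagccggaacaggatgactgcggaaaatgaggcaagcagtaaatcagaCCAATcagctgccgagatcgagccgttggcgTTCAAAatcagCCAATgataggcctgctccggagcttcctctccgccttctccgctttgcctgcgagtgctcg
In GRCm38.p6 these lie at chr13:100786457-100786616 (- strand), chr9:70421525-70421684 (- strand), chr4:118437314-118437473 (- strand), chr1:189688057-189688216 (- strand), chr7:127042391-127042550 (- strand), chr4:124936888-124937047 (- strand), chr2:127831830-127831989 (- strand) and chr7:131560240-131560399 (+ strand). Each spans the gene start, with at most the first 30 bases inside the transcript.

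Late genotype ratios overlapped between genes with both kinds of motif and genes without both. The median was -0.54 over the 25 genes with both kinds of motif, -0.47 over the 10 without both, and -0.61 over the 7 with no window. Among genes with both, it ran from -0.96 (Cdc20) to 0.0031 (Bub3). Birc5, Mad2l1 and Pttg1, none of which had both motifs, read -0.99, -0.72 and -0.59. Some of the 10 without both held a single kind, such as Bub1 with CCAAT and Birc5 with TTTAAA, whereas Mad2l1 and Pttg1 held neither.

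**Figure D1:**
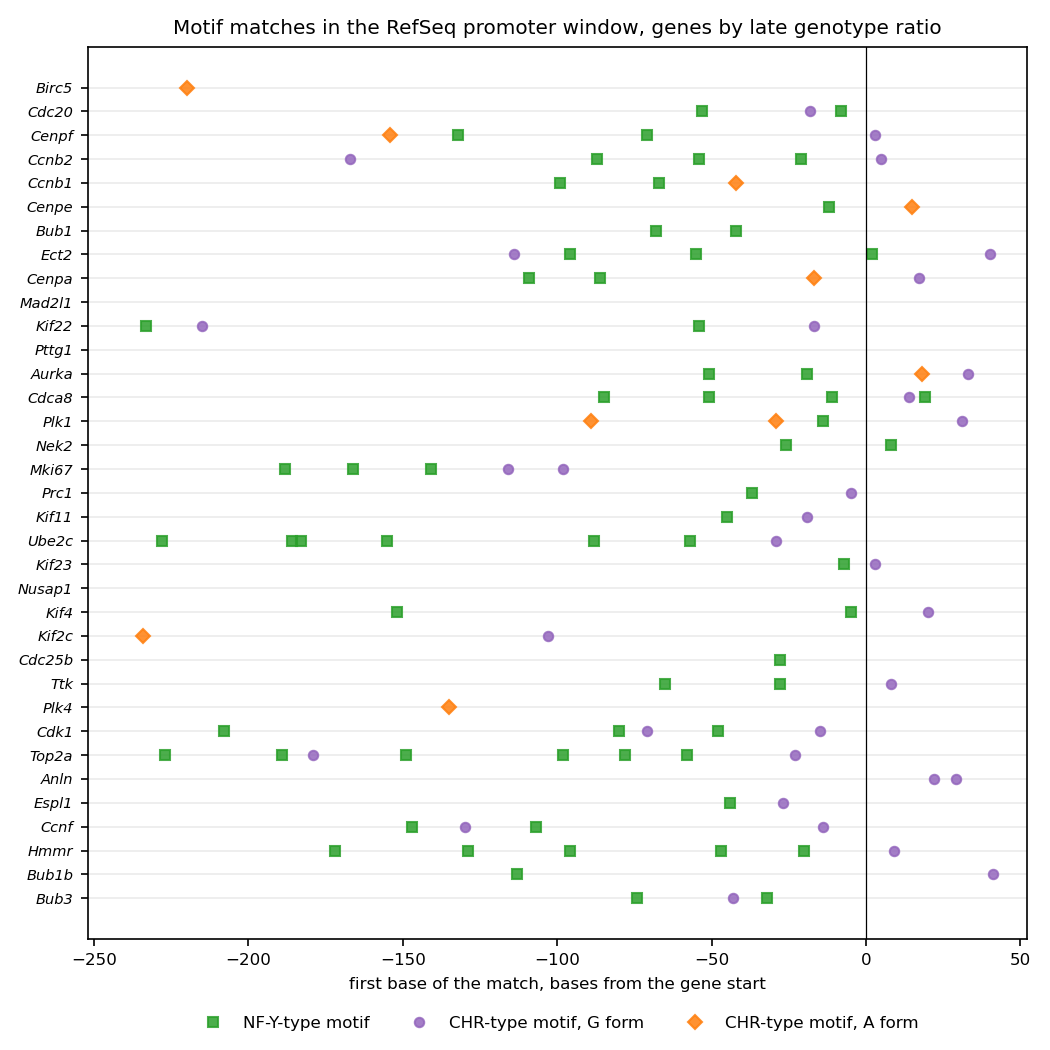
Positions of motif matches in the RefSeq promoter windows of 35 genes, ordered from the lowest (top) to the highest late genotype ratio. The x axis is the distance in bases from the gene start; squares mark CCAAT (the NF-Y-type motif), circles TTTGAA and diamonds TTTAAA (CHR-type motifs), the last 2 with a median position of -18.

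At the early passage the 42 genes stood on both sides of 0, and at the late passage nearly all stood below it. The early median was -0.028, an F/- signal of 98.1% of the F/+ signal, with 24 of 42 genes below 0. The late median was -0.54, or 68.5% of F/+, with 41 of 42 below 0; Bub3 was the exception, at 0.0031. Over all 35571 probes the medians were -0.0055 and -0.011, and 51.4% and 53.1% of probes lay below 0. Of all probes, 2.87% had a late ratio at or below the members' late median, and 44.5% an early ratio at or below their early median.

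The shift was present in both pairs. Medians of the 42 genes were -0.030 and -0.051 on the early arrays, -0.62 on late array 1 and -0.46 on late array 2. On both late arrays 37 genes read below 0 and 0 read above it; of all probes 34.9% were below 0 on both. On the early arrays 17 genes were below 0 on both and 12 above on both. Both late ratios lay below both early ratios in 38 of the 42 genes, against 18.2% of all probes; Cdk1, Cenpa, Espl1 and Pttg1 overlapped.

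**Figure D2:**
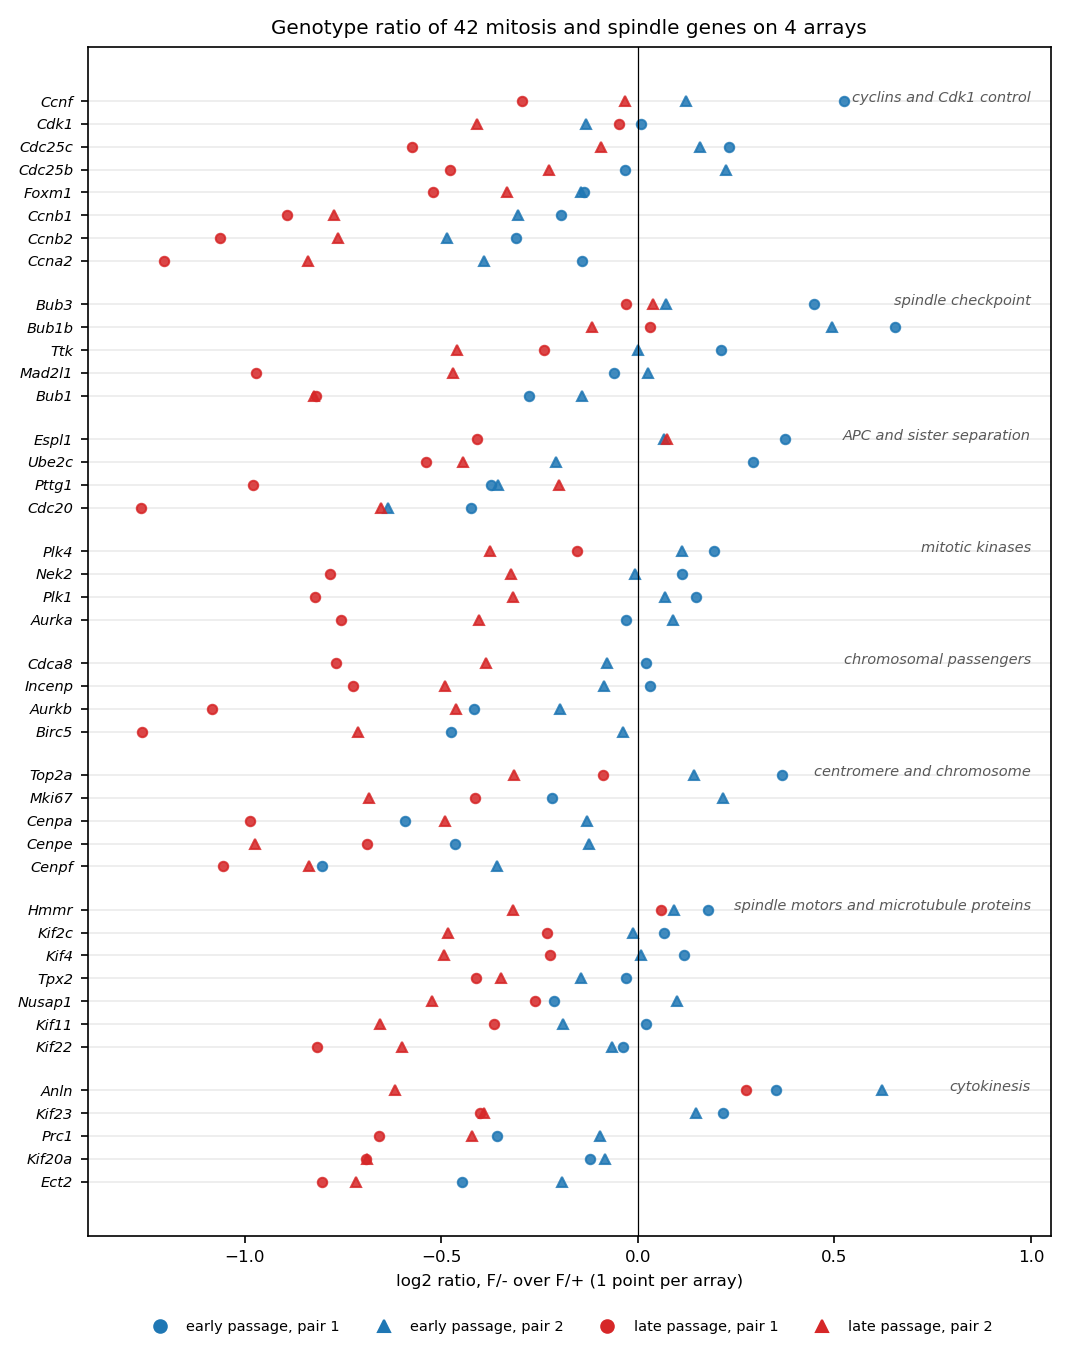
Genotype ratio of each of the 42 genes (rows, grouped by role) on each array; the x axis is log2 F/- over F/+, blue marks are early and red marks late arrays, circles pair 1 and triangles pair 2. In 38 of 42 rows both red marks lie left of both blue marks.

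No single gene passed limma's test within a passage. At an adjusted p under 0.05 (Benjamini-Hochberg over all 35571 probes), 0% of probes were called early and 0% late, and so 0 members; the smallest adjusted p of a member was 0.083 (Bub1b) early and 0.079 late. At an unadjusted p under 0.05, 6 members were lower and 1 higher early, where 8.42% and 12.2% of probes were. Late, 33 members were lower and 0 higher at that level, where 8.49% and 11.5% of probes were. With 2 arrays per passage the precision of these tests is limited.

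Over the mean of both passages 10 of the 42 genes were lower in F/- and 0 higher at an adjusted p under 0.05. Among all probes 2.99% were called lower (1064) and 5.85% higher (2080); with median centring in place of loess the split was 3050 lower and 917 higher, and 24 members were called lower. On all 4 arrays 17 members read below 0, against 19.9% of all probes. The 10 were Ccna2, Ccnb1, Ccnb2, Cdc20, Bub1, Cenpe, Cenpf, Kif22, Kif20a and Ect2. This mean treats the 4 arrays as independent although they come from 2 mice per genotype: with the arrays of a pair averaged first, 0 members and 0 probes were called (smallest adjusted p 0.0508). It was also 0 members without early array 1, without early array 2 or without late array 1, and 16 without late array 2.

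Cyclins and the control of Cdk1 comprised 8 genes, and all 8 read below 0 on both late arrays (late median -0.39). Ccna2, the cyclin of S and G2 phase, read -0.14 and -0.39 early and -1.21 and -0.84 late. Its late mean put the F/- signal at 49.2% of F/+, the lowest of the 42 genes, and its 4-array mean was -0.64 ± 0.088 (SE, limma adjusted p = 0.029). Ccnb1 and Ccnb2 encode the B-type cyclins that carry cells into mitosis. Ccnb1 read -0.20 and -0.30 early and -0.89 and -0.77 late (mean -0.54 ± 0.057, adjusted p = 0.0257). Ccnb2 read -0.31 and -0.49 early and -1.06 and -0.76 late (mean -0.66 ± 0.076, adjusted p = 0.0261). In all 3 cyclin genes both late arrays were lower than both early arrays, and all 4 ratios were below 0.

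The kinase gene Cdk1, whose product is present through most of the cycle, moved least of this group. It read 0.0067 and -0.13 early and -0.047 and -0.41 late, so the passages overlapped, and its 2 probes differed in sign late (-0.23 and 0.045). Foxm1, a transcription factor of G2 and M phase genes, read -0.14 and -0.15 early and -0.52 and -0.33 late. Ccnf, a cyclin that serves as an F-box protein, read 0.52 and 0.12 early and -0.30 and -0.034 late. The phosphatases Cdc25b and Cdc25c remove inhibitory phosphates from Cdk1. Cdc25b read -0.033 and 0.22 early and -0.48 and -0.23 late, and its 3 probes ranged from -0.44 to 0.15 late. Cdc25c read 0.23 and 0.16 early and -0.57 and -0.094 late. Ccnf and Cdc25c thus changed side between passages on both pairs, with neither passing a test.

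The spindle checkpoint group held the gene furthest above 0 early and the one nearest 0 late. Bub1, a checkpoint kinase at the kinetochore, read -0.28 and -0.14 early and -0.82 on both late arrays (mean -0.52 ± 0.055, adjusted p = 0.0257). Mad2l1, whose product binds and holds back Cdc20, read -0.061 and 0.025 early and -0.97 and -0.47 late. Ttk, the kinase Mps1 that starts checkpoint signalling, read 0.21 and -0.00034 early and -0.24 and -0.46 late. Those 3 genes were all below 0 on both late arrays. Bub1b, which encodes the checkpoint protein BubR1, read 0.65 and 0.49 early, the highest mean of the 42, and 0.032 and -0.12 late. Bub3, a WD-repeat partner of Bub1 and BubR1, read 0.45 and 0.071 early and -0.031 and 0.037 late, and its 3 probes lay between -0.076 and 0.0086 late. The late minus early estimate of Bub1b was -0.62, and that of the representative Bub3 probe was -0.26. The other 2 kept Bub3 probes read -0.050 and -0.15 early, and their late minus early estimates were 0.059 and 0.072.

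Among APC partners and sister separation genes, Cdc20 passed the test. Cdc20 activates the APC, and it read -0.42 and -0.64 early and -1.26 and -0.65 late (mean -0.75 ± 0.12, adjusted p = 0.0343). Its late minus early difference was -0.84 in pair 1 and -0.018 in pair 2, so pair 2 read almost the same at both passages. Pttg1, the gene of securin, which guards separase, read -0.37 and -0.36 early and -0.98 and -0.20 late. Espl1, the gene of separase itself, read 0.37 and 0.065 early and -0.41 and 0.073 late. In both, late array 2 read no lower than the early array of pair 2. Ube2c, the ubiquitin-conjugating enzyme of the APC, read 0.29 and -0.21 early and -0.54 and -0.44 late.

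The 4 mitotic kinase genes read at or just above 0 early (medians 0.13 and 0.078) and below 0 on both arrays late (medians -0.77 and -0.35). Plk1, which acts from mitotic entry to cytokinesis, read 0.15 and 0.068 early and -0.82 and -0.32 late. Aurka, a kinase of centrosomes and spindle poles, read -0.030 and 0.088 early and -0.76 and -0.40 late. Nek2, which separates centrosomes, read 0.11 and -0.0073 early and -0.78 and -0.32 late. The late ratio of these 3 was lower in pair 1 than in pair 2, whereas in Plk4, which starts centriole duplication, it was the reverse. Plk4 read 0.19 and 0.11 early and -0.15 and -0.38 late.

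All 4 chromosomal passenger genes, which encode the kinase complex that corrects attachments and directs cytokinesis, read below 0 on both late arrays (late median -0.69). Birc5, the gene of survivin, read -0.48 and -0.037 early and -1.26 and -0.71 late; its late mean was 50.5% of F/+ and its 4-array mean missed the threshold (-0.62 ± 0.12, adjusted p = 0.0508). Aurkb, the kinase of the complex, read -0.42 and -0.20 early and -1.08 and -0.46 late (adjusted p of the mean 0.0588). Incenp, its scaffold, read 0.031 and -0.086 early and -0.72 and -0.49 late. Cdca8, the gene of borealin, read 0.021 and -0.078 early and -0.77 and -0.39 late. By their representative probes, the 4 subunits stood at late values between -0.58 and -0.99. The 3 kept probes of Cdca8 ran from -0.58 to -0.034 late.

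By their representative probes, centromere and chromosome genes split into 3 that were already below 0 on both early arrays and 2 that were not. Other kept probes of those 3 did not all read below 0 early. Cenpf, a kinetochore protein of G2 and M phase, read -0.80 and -0.36 early and -1.06 and -0.84 late (mean -0.76 ± 0.095, adjusted p = 0.027), the lowest 4-array mean of the 42. Its second kept probe had means of 0.089 early and -0.21 late. Cenpe, a kinetochore motor, read -0.47 and -0.13 early and -0.69 and -0.98 late (mean -0.56 ± 0.088, adjusted p = 0.0343). The means of its 3 kept probes ran from -0.43 to 0.060 early and from -0.83 to -0.31 late. Cenpa, the centromeric histone H3 variant, read -0.59 and -0.13 early and -0.99 and -0.49 late, and its second probe read 0.050 early and 0.048 late. Mki67, the gene of the Ki-67 antigen used to mark cycling cells, read -0.22 and 0.22 early and -0.41 and -0.68 late. Top2a, the topoisomerase that untangles sister DNA, read 0.37 and 0.14 early and -0.088 and -0.32 late.

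Of the 7 genes of spindle motors and microtubule proteins, 6 read below 0 on both late arrays. Kif22, a chromokinesin, read -0.039 and -0.066 early and -0.82 and -0.60 late (mean -0.38 ± 0.062, adjusted p = 0.037). Kif11, the motor that pushes the poles apart, read 0.019 and -0.19 early and -0.37 and -0.66 late. Kif2c, which removes tubulin at kinetochores, read 0.066 and -0.012 early and -0.23 and -0.48 late. Except in Kif22 and Tpx2, the ratio was lower in pair 2 than in pair 1 late. Kif4, another chromokinesin, read 0.12 and 0.0069 early and -0.22 and -0.49 late. Nusap1, which bundles microtubules, read -0.21 and 0.10 early and -0.26 and -0.52 late. Tpx2, an activator of Aurka on the spindle, read -0.031 and -0.15 early and -0.41 and -0.35 late. Hmmr, a spindle pole protein also known as a hyaluronan receptor, was the 1 gene not below 0 on both late arrays, with 0.18 and 0.091 early and 0.060 and -0.32 late.

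In the cytokinesis group, Kif20a and Ect2 passed the test of the mean. Kif20a, a motor of the spindle midzone, read -0.12 and -0.085 early and -0.69 on both late arrays (mean -0.40 ± 0.051, adjusted p = 0.028). Ect2, which activates RhoA at the furrow, read -0.45 and -0.19 early and -0.80 and -0.72 late (mean -0.54 ± 0.067, adjusted p = 0.027). Its second kept probe had means of 0.0013 early and -0.16 late. In the representative probes of Kif20a and Ect2 the late arrays of the 2 pairs gave nearly the same value, below both early arrays. Prc1, which bundles midzone microtubules, read -0.36 and -0.095 early and -0.66 and -0.42 late. Kif23, a subunit of centralspindlin, read 0.22 and 0.15 early and -0.40 and -0.39 late. Anln, the gene of the actin-binding furrow protein anillin, read 0.35 and 0.62 early and 0.28 and -0.62 late. The late arrays of Anln pointed in opposite directions, the widest gap between pairs among the 42.

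The change of the genotype ratio from early to late is the comparison in which an equal dye effect cancels. By representative probes it was below 0 in 42 of 42 genes, against 50.8% of all probes. It ranged from -0.75 (Ccna2) to -0.17 (Cdk1), with a median of -0.48, or 71.8% of the early ratio; the median of all probes was -0.0032. It was below 0 in both pairs in 40 genes, against 26.3% of all probes. Espl1 (-0.78 in pair 1, 0.0079 in pair 2) and Pttg1 (-0.61 and 0.16) were the exceptions. None of the 35571 probes passed the adjusted threshold (0%), and the smallest member value was 0.82. At an unadjusted p under 0.05, 29 members were lower and 0 higher, where 3.34% and 2.49% of probes were. Medians of the 42 were -0.55 in pair 1 and -0.45 in pair 2. Some other kept probes did not fall. The second probe of Anln had a late minus early estimate of 0.012. Those of Nusap1 and Espl1 had means of -0.16 and -0.12 early and -0.036 and -0.038 late. With all kept probes of a gene averaged, 42 of 42 genes were below 0.

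**Figure D3:**
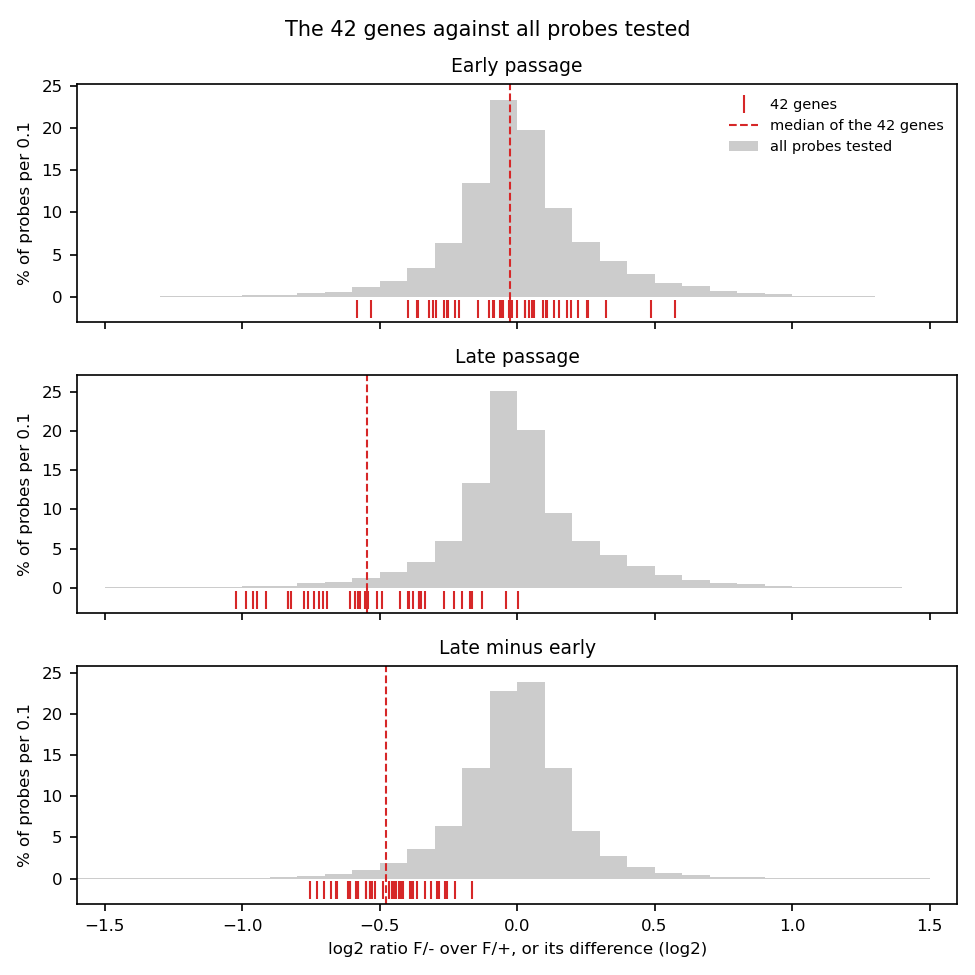
Log2 genotype ratios of all 35571 probes (grey bars, percent of probes per 0.1) and of the 42 genes (red ticks, median dashed) at the early passage, the late passage and for late minus early. The median of the 42 moves from -0.028 to -0.54, and all 42 late minus early differences of the representative probes lie below 0.

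The same shift was then followed in each genotype's own channel, as normalised log2 signal at the late minus the early passage. In F/-, 41 of 42 genes had a lower estimate at the late passage, against 47.7% of all probes (median -0.50, or 70.9% of the early signal), and 40 were lower in both pairs, against 34.4% of all probes. In F/+, 28 had a lower estimate, against 46.7% of all probes (median -0.061, or 95.9%), with 13 lower in both pairs (31.1% of all probes) and 7 higher in both; without late array 1 the F/+ median was 0.036, with 20 of 42 below 0. The 2 late F/- signals lay below the 2 early ones in 34 of 42 genes (26.8% of all probes) and above them in 0 (30% of all probes). For F/+ this held in 8 genes lower (24.1% of all probes) and 5 higher (28.1%). F/- and F/+ share arrays, so effects of an array enter both changes.

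Aurkb, Cdc25b, Cdca8 and Plk1 fell with passage in F/- at an adjusted p under 0.05, that is 4 of 42, where 2.12% of all probes fell and 2.98% rose; 20 were lower at an unadjusted p under 0.05, where 8.97% of probes were, and 0 higher (11.6%). In F/+, 0 of 42 were called, where 2.31% of all probes fell and 3.35% rose; at an unadjusted p under 0.05, 3 were lower (8.98% of probes) and 2 higher (12% of probes). The difference between the genotypes' changes is the late minus early comparison above, in which no gene passed. With the pair as a block the count in F/- was 12, all lower, where 4.96% of probes were lower under that fit, adding Aurka, Birc5, Ccna2, Ccnb1, Cenpa, Mki67, Nek2 and Ube2c, and in F/+ it was 1, Cdc25b, which fell by 0.87 (adjusted p = 0.0139), where 5.3% of probes were lower. Without early array 1 or without early array 2 the count in F/- was 0, and with the scanner's own signals it was 1.

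Cdc25b had normalised log2 signals in F/- of 11.15 and 11.50 early and 9.86 and 10.14 late (change -1.32 ± 0.20, SE, adjusted p = 0.0136). In F/+ they were 11.18 and 11.28 early and 10.34 and 10.37 late (change -0.87 ± 0.20, adjusted p = 0.0506). Late signals of Cdc25b thus lay below the early ones in both genotypes. Aurkb signals in F/- were 9.88 and 10.03 early and 7.74 and 8.84 late (change -1.67 ± 0.35, adjusted p = 0.0421), a late signal of 31.5% of the early one. In F/+ they were 10.30 and 10.23 early and 8.83 and 9.30 late (change -1.20 ± 0.35, adjusted p = 0.103). For Aurkb, too, neither genotype's late signals overlapped its early ones.

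Plk1 signals in F/- were 13.20 and 13.32 early and 12.15 and 12.20 late (change -1.09 ± 0.24, adjusted p = 0.047). In F/+ they were 13.06 and 13.25 early and 12.98 and 12.52 late (change -0.41 ± 0.24, adjusted p = 0.369). Cdca8 signals in F/- were 14.41 and 14.36 early and 13.31 and 13.53 late (change -0.96 ± 0.19, adjusted p = 0.0363), and in F/+ 14.38 and 14.44 early and 14.08 and 13.92 late (change -0.41 ± 0.19, adjusted p = 0.274). Both genes had similar early signals in the 2 genotypes and stood lower in F/- than in F/+ late.

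The passage changes of the genes named next differed in size, and all missed the adjusted threshold in the fit without the pair block, in either genotype. Ccna2 changed by -0.99 in F/- (adjusted p = 0.0504) and by -0.24 in F/+. Ccnb2, by contrast, changed by -0.40 and 0.12, Cenpf by -0.44 and -0.072, and Kif20a by -0.19 and 0.40. Cenpe was the 1 gene with an F/- estimate above 0, at 0.18, beside 0.71 in F/+. Cdk1 and Bub3 had the smallest F/- changes, -0.056 and -0.12, beside 0.11 and 0.13 in F/+. Cenpa, at -1.16 and -0.78, resembled Aurkb in that both genotypes' estimates were well below 0.

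**Figure D4:**
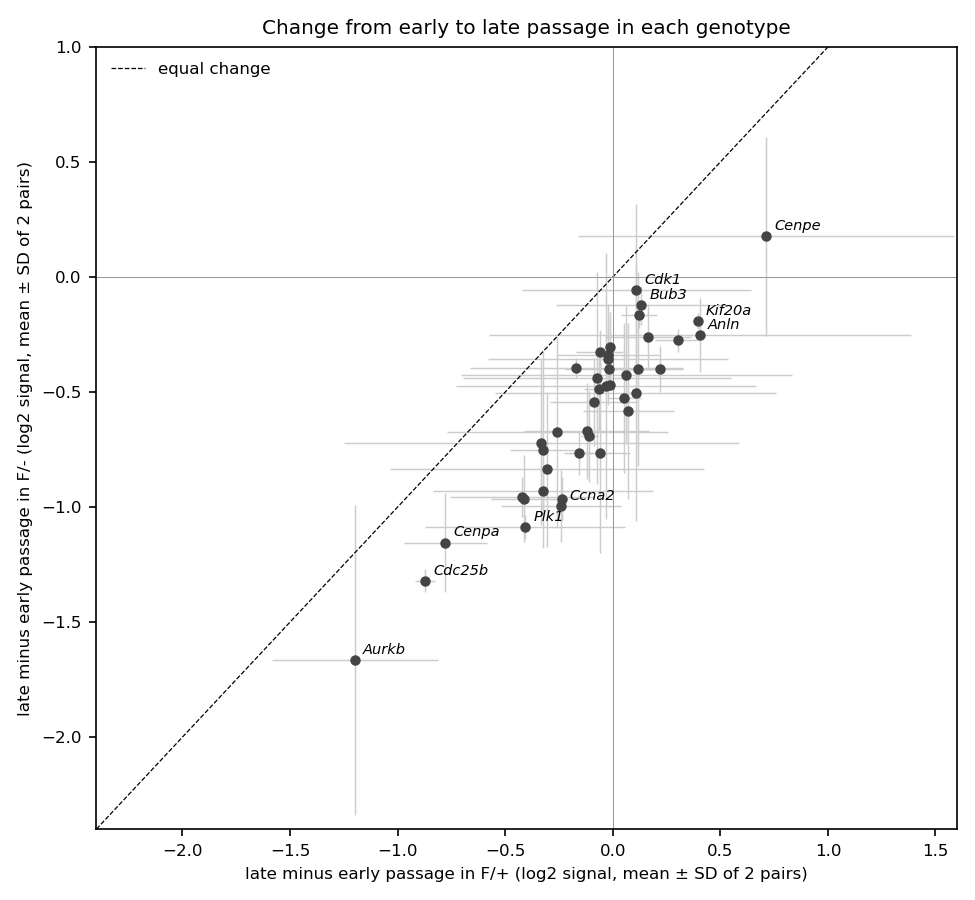
Change of normalised log2 signal from early to late passage in F/+ (x axis) and F/- (y axis) for the 42 genes, mean ± SD of 2 pairs, with the dashed line at equal change. All 42 points lie below the line; the median is -0.061 on the x axis and -0.50 on the y axis.

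Other genes of cell division, taken from lists of the pathway, had late ratios mostly on the same side. Of all probes, 53.1% lay below 0 late, and over both passages 2.99% were called lower and 5.85% higher. Of 26 other kinetochore and centromere genes, 22 read below 0 late (median -0.49), and over both passages 8 were called lower and 0 higher; among them Nsl1, a subunit of the Mis12 complex, stood at -0.77 (adjusted p = 0.028) and Sgo1, which protects centromeric cohesin, at -0.62 (adjusted p = 0.0257). Of 24 other spindle and cytokinesis genes, 22 were below 0 late (median -0.44), with 4 called lower over both passages and 1, the microtubule polymerase Ckap5, called higher (0.41, adjusted p = 0.0463). Among 11 genes listed under mitotic entry control, 8 were below 0 late (median -0.58, highest 0.35). Over both passages 3 of them were called lower, namely Cdkn3, Gmnn and Pkmyt1. These lists and the 42 genes overlap in function but share no gene.

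Lists of other cell cycle functions had late medians between -0.51 and 0.022. Their counts stand beside 53.1% of all probes below 0 late. Over both passages 2.99% of all probes were called lower and 5.85% higher, and 2.12% were called lower with passage in F/-. MCM and DNA replication genes, which act in S phase, had a late median of -0.51 with 23 of 24 below 0, 6 called lower over both passages and 7 called lower with passage in F/-. Condensin and cohesin genes had a late median of -0.17 (13 of 14 below 0) with 4 called lower over both passages, and APC subunits -0.27 (13 of 15 below 0) with 2 called lower and 1 higher. DREAM and E2F regulators had a late median of -0.17 with 15 of 22 below 0; E2f2 and E2f7 were called lower over both passages, at -1.12 and -0.81, and Tfdp1 higher, at 0.42. G1 cyclins and kinases had a late median of 0.022 and an early one of 0.31; Ccnd3 and Cdk2 were called higher over both passages, at 0.72 and 0.51, and Ccne2 lower, at -0.48.

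**Figure D5:**
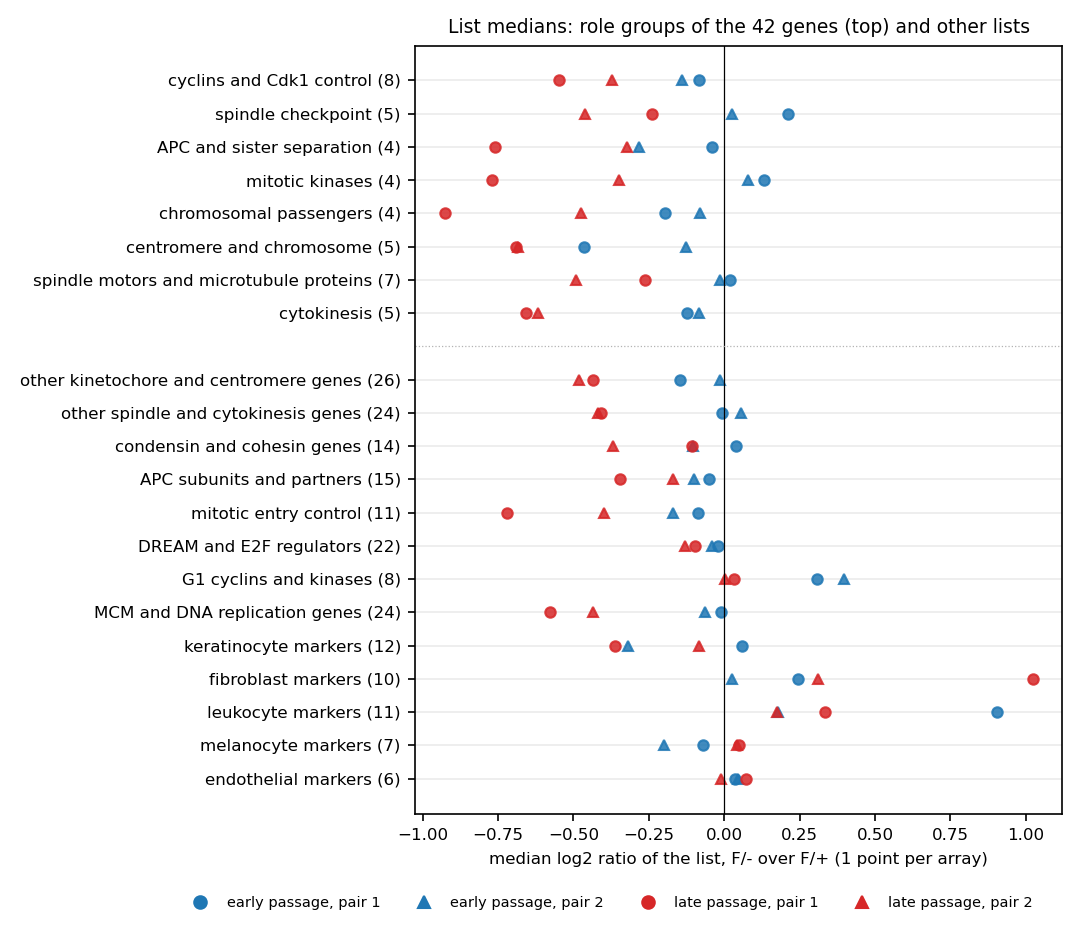
Median log2 ratio of F/- over F/+ on each array for the 8 role groups of the 42 genes (top) and for other gene lists (number of genes measured in brackets); blue marks are early and red marks late arrays, circles pair 1 and triangles pair 2. All 8 role groups and the MCM list lie below 0 on both late arrays. So do the other kinetochore, other spindle, mitotic entry, condensin, APC, DREAM and keratinocyte marker lists. Fibroblast markers, leukocyte markers and G1 cyclins and kinases lie above 0 on all 4.

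Markers of some other cell types differed between the cultures beside these results. Fibroblast markers had a late median ratio of 0.72 over 10 genes (8 above 0 on both late arrays), 1.02 in pair 1 and 0.31 in pair 2, and an early median of 0.14. Their summed normalised signal in pair 1 and pair 2, in that order here and below, was 13170 and 11446 in late F/- and 7637 and 9437 in late F/+ cultures, against 424501 and 421079 in F/- and 609748 and 617205 in F/+ for 12 keratinocyte markers. The late median of the 42 genes was -0.62 in pair 1 and -0.46 in pair 2. Leukocyte markers had a median of 0.45 early and 0.28 late over 11 genes, with summed signals of 7788 and 5241 in early F/-, 4748 and 5146 in early F/+, 3594 and 3056 in late F/- and 2663 and 2480 in late F/+ cultures. None of the fibroblast or leukocyte markers was below background throughout. Melanocyte markers had a median of -0.13 early and 0.062 late over 7 genes, and endothelial markers 0.087 and 0.034 over 6. Of the melanocyte and endothelial markers, 0 were called by genotype over both passages. Of the 10 fibroblast markers, 1 was called higher in F/- over both passages, where 5.85% of all probes were. With passage, melanocyte markers fell in both genotypes (medians -1.43 in F/- and -1.33 in F/+). Of the 7, 4 in F/- and 3 in F/+ were called lower, where 2.12% and 2.31% of all probes were. Leukocyte markers fell with passage as well, 10 of 11 in each genotype (medians -1.02 in F/- and -0.94 in F/+). Of the 11, 1 in F/- and 2 in F/+ were called lower. Of the 12 keratinocyte markers, 5 were called lower in F/- over both passages, where 2.99% of all probes were, and 0 higher. These were Krt5, Krt14, Krt15 and Col17a1, at -0.60, -0.66, -0.45 and -0.58, and the cornified envelope gene Lor, at -0.84. Krt1 and Krt10 read -0.15 and -0.57, and 5 markers stood above 0 without being called: Ivl at 0.35, Itga6 at 0.29, Dsg3 at 0.26, Itgb4 at 0.18 and Trp63 at 0.044. The part of these differences in the ratios of the mitotic genes was not tested.

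Probe brightness also moved with the result. All 42 representative probes were brighter than the median kept probe; among the 55 member probes that were, 53 read below 0 late (median -0.54), and among the 14 dimmer ones 11 did (median -0.074). Over the 15915 kept probes at least as bright as the dimmest representative probe, the late median was 0.0043 and 49.4% were below 0. Averaging all kept probes of a gene gave a late median of -0.45 with 42 of 42 below 0. The early level moved with the normalization: with median centring in place of loess the early arrays gave medians of -0.44 and -0.11 (32 of 42 genes below 0 on average) and the late arrays -0.91 and -0.69, so the late medians lay below 0 under both.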

How the data were processed

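RNA of 8 cultures was compared on 4 dual-colour Agilent arrays. Per the submitters' processing notes the authors used Agilent Feature Extraction 9.1.3.1. Per the file headers, the deposited files hold raw intensity (mean signal, median local background) per spot and channel, processed intensity, and a log10 ratio (Cy5 to Cy3) made from the latter; the authors' value table holds that log10 ratio with the sign turned (largest gap 4.96e-06), and its medians were -0.00223, 0, 0 and -0.000733. Scale, centring and direction of that table are therefore known.

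From the raw intensities, limma 3.58.1 (R 4.3.3) gave background-corrected (normexp, offset 50), loess-normalised log2 ratios, turned to F/- over F/+. Of 45018 spots 43379 were gene spots; spots of a probe were averaged, and 35571 probes were kept, each clear of background in either channel on 2 arrays or more and missing on no more than 1. Median raw signal was 101 to 139 in Cy3 and 166 to 253 in Cy5, over backgrounds of 37 to 39 and 59 to 61. limma (lmFit, eBayes; 2 residual and 2.81 prior degrees of freedom) tested genotype at each passage, over both, and late minus early, two-sided, Benjamini-Hochberg at 0.05. Every adjusted p in the text comes from limma over all probes. Passage changes used limma's separate-channel fit (loess, Aquantile; spot correlation 0.742) on the 35472 probes with no missing value. The fits were tested on simulated data. Replicates are cultures of different mice; slide and scan were the same for all arrays (1 each), so no slide block could be fitted.

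The design text names 2 mice per genotype sampled at both passages, so arrays of the same number are paired, although their deviations from the passage means correlated at -0.000464 across probes. The pair as a block was an alternative, beside other background, normalization, filter and probe choices, pairs averaged first, and leaving out each array. Every member is named, with array values for all 42; of other lists, called genes were named. Members and lists were chosen with earlier results of these data known, so no list was tested. Promoter windows are RefSeq's (GRCm38.p6), searched with Python 3.11.15.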

Additional observations from a re-analysis of the deposited data

Results flagged for a closer look

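By their representative probes, 7 of the 42 genes read above 0 on both early arrays and below 0 on both late arrays. The genotype ratio of these probes thus pointed in opposite directions at the 2 passages. The difference itself was tested with limma over all probes, and none of the 7 passed. The late minus early difference was -0.49 for Ccnf (adjusted p = 0.851), -0.53 for Cdc25c (0.841), -0.58 for Kif23 (0.82), -0.42 for Kif4 (0.84), -0.68 for Plk1 (0.825), -0.42 for Plk4 (0.825) and -0.46 for Top2a (0.826). Each was below 0 in both pairs. Not every kept probe of these genes changed side. The lowest early mean among kept probes was -0.060 for Kif23, -0.027 for Plk4 and -0.15 for Top2a.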

How the results depend on the processing

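The late median of the 42 genes kept its direction under every alternative run, from -0.82 with median centring to -0.45 with all probes of a gene averaged, and between -0.62 and -0.46 with 1 array left out. The early median depended on scaling, at -0.29 with median centring and -0.054 with the scanner's ratios (-0.051 to -0.028 leaving out 1 array), against -0.028. For the mean of both passages, called members numbered 24 with median centring, 0 with pairs averaged first, and 0 to 16 leaving out 1 array, against 10. Called probes numbered 1934 with the scanner's ratios, 1608 with probes averaged (24245 genes tested), 0 with pairs averaged first and 0 to 3968 leaving out 1 array, against 3144; the early comparison gave 69 probes (49 higher, 20 lower) with a background offset of 0, against 0. The late minus early median ranged from -0.58 to -0.45 leaving out 1 array.

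In F/-, called members with passage numbered 2 with a background offset of 0 or no background subtraction, 1 with scanner signals, 12 with the replicate block and 0 to 6 leaving out 1 array, against 4, and the median ranged from -0.75 to -0.37. Called probes in F/- were 3859 with the replicate block and 97 to 3111 leaving out 1 array, against 1809. In F/+, called members numbered 1 with quantile normalization, with no filter or with the replicate block and 0 to 3 leaving out 1 array, against 0; called probes were 4143 with the block and 177 to 4650, against 2009. The F/+ median ranged from -0.17 to 0.036, the latter without late array 1, where its direction turned. The replicate block kept all 10 calls over both passages. Passage fits without an array used the spot correlation of all 4. Apart from fewer arrays or genes tested, the cause of these changes was not tested. Signal over background limits the dimmer probes, and 2 pairs limit every test.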
